A study of Mus musculus with 12 samples.

Results

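The genes described here are the core set of the WNT pathway in cultured mouse chondrocytes: the Wnt ligands, their receptors and co-receptors, the secreted and membrane-bound antagonists, and the intracellular components and target genes through which the signal is passed on. They were chosen by symbol from the deposited table of raw counts. All Wnt, Fzd, Dkk, Sfrp and Rspo genes, Lgr4, Lgr5 and Lgr6, and the Tcf7 genes were taken, together with Lrp5, Lrp6, Wif1, Frzb, Axin1, Axin2, Lef1, Nkd1, Nkd2, Notum, Apcdd1, Ctnnb1, Ror1, Ror2, Znrf3 and Rnf43. The choice found 63 of the 49315 genes in the table. Of these, 49 had enough counts to be among the 16565 genes tested and 14 did not.

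The study sequenced RNA from primary epiphyseal chondrocytes of 5-day-old mice of 4 genotypes, with 3 libraries each: WT, Phlpp1-/- (Phlpp1 KO), Phlpp2-/- (Phlpp2 KO) and Phlpp1/2-/- (Phlpp1/2 KO). Phlpp1 and Phlpp2 encode phosphatases that remove activating phosphates from kinases such as AKT. Cells of every genotype were released with collagenase II, frozen, thawed, plated overnight in medium with serum and lysed the next day, so all values are those of cells in short culture. The labels do not say whether a library held 1 animal or several, how the knockout alleles were made, or whether replicates were separate animals, and p values therefore measure only the spread between these libraries. They give the strain as C57BL6 for WT, Phlpp1 KO and 2 Phlpp2 KO libraries, as C57BL7 for Phlpp2 KO 3, and as C57BL8, C57BL9 and C57BL10 for Phlpp1/2 KO 1, 2 and 3.

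WNT proteins are secreted lipid-modified ligands that bind Frizzled receptors on the cell surface. With the co-receptors LRP5 and LRP6 they stop the breakdown of beta-catenin, which then acts with TCF/LEF factors in the nucleus, while other ligands signal through ROR receptors without beta-catenin. R-spondins and their LGR receptors protect Frizzled receptors from removal by the ligases ZNRF3 and RNF43. In growing cartilage the pathway is known for its part in the switch of chondrocytes to hypertrophy and in the formation of joints, and secreted antagonists such as FRZB were first found in cartilage.

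The 12 libraries held between 21706337 and 33115345 counts. Values per library are in CPM (the count of a gene scaled to the library total, with TMM factors), and a single count stood for 0.0295 to 0.0453 CPM. Phlpp1 was at 35.1 to 43.8 CPM in WT and at 7.71 to 9.46 CPM in the Phlpp1 KO and Phlpp1/2 KO libraries. Phlpp2 was at 22.4 to 28.1 CPM in WT, at 10.2 to 11.4 CPM in Phlpp1/2 KO and at 16.8 to 19.4 CPM in Phlpp2 KO, a difference from WT of −0.52 on the log2 scale that did not pass the test (adjusted p = 0.0607, edgeR). Because Phlpp2 was only partly lower there, the group is that of the libraries labelled Phlpp2 KO. All libraries were labelled female, but Xist was at 13.9 CPM in Phlpp1 KO 1 and 3.77 CPM in Phlpp1/2 KO 1 against 278 to 587 CPM in the others. The Y-linked gene Ddx3y was at 66.6 CPM in Phlpp1/2 KO 1, at 0 in Phlpp1 KO 1 and at no more than 0.685 CPM in any other library. The chondrocyte genes Col2a1, Acan, Sox9, Matn1 and Comp summed to 24799 to 46510 CPM in each library. Of the blood genes, Hbb-bs was at 0 in every library, Hba-a1 at no more than 0.0612 CPM and Ptprc at 0.181 to 0.679 CPM. The summed fibroblast and perichondrium genes were at 522 to 1086 CPM and the summed macrophage genes at 19.2 to 37.5 CPM. The summed skeletal muscle genes reached 75.5 CPM in WT 2 against 6.13 to 34.9 CPM in the other libraries. The part of these libraries in the results was not tested beyond the values given without them.

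Phlpp2 KO 1 stood apart over the WNT genes. Its median absolute difference over the 49 tested genes, on the log2(CPM + 0.5) scale, was 0.279 to Phlpp2 KO 2 and 0.299 to Phlpp2 KO 3, while the other pairs within a genotype differed by 0.113 to 0.191. The same library differed by 0.153 from Phlpp1/2 KO 1. In 32 of the 49 genes Phlpp2 KO 1 lay farther from both other Phlpp2 KO libraries than those lay from each other, against 8 to 23 genes for any other library. Over all 16565 tested genes its distances were 0.167 and 0.153, again above the other pairs within a genotype, at 0.100 to 0.151. Counts of genes in comparisons with Phlpp2 KO are therefore also given without it.

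**Figure D1:**
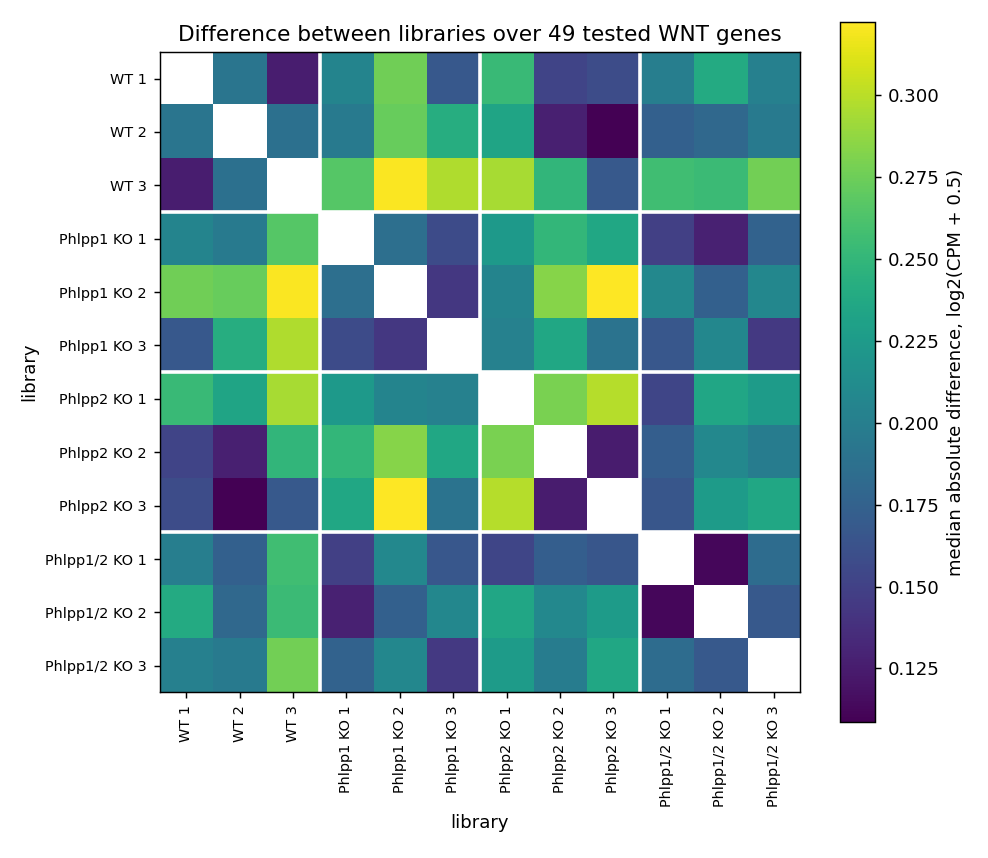
Median absolute difference on the log2(CPM + 0.5) scale over the 49 tested WNT genes for each pair of the 12 libraries, which stand on both axes. The colour gives the difference, from dark (small) to yellow (large), and white lines separate the genotypes. The pairs of Phlpp2 KO 1 with Phlpp2 KO 2 and Phlpp2 KO 3, at 0.279 and 0.299, lie above the other pairs within a genotype, at 0.113 to 0.191.

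Levels between genes were compared per kilobase of exonic length (CPM per kb, mean of the 12 libraries). Ctnnb1, which encodes beta-catenin, was the highest of the WNT genes at 236 CPM per kb. Next came the Frizzled receptor Fzd9 at 19.9, the R-spondin receptor Lgr6 at 19.1, the co-receptor Lrp5 at 18.8, the scaffold of the destruction complex Axin1 at 16.7, Fzd2 at 16.2 and the R-spondin receptor Lgr4 at 16.0 CPM per kb. The highest ligand gene, Wnt5b, was below all of these at 3.84 CPM per kb.

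Among the 19 Wnt genes, 10 were tested. Wnt5b, a ligand known to act without beta-catenin in cartilage, was followed by Wnt10b at 2.69, Wnt11 at 2.16, Wnt5a at 1.79, Wnt7b at 1.45 and Wnt7a at 1.03 CPM per kb. Wnt9a, Wnt4, Wnt10a and Wnt2b were each under 1 CPM per kb. Wnt5b made up a median of 24.9% of the summed level per length of all Wnt genes (20.1% to 32.5% over the 12 libraries), Wnt10b 18.0%, Wnt11 14.3% and Wnt5a 11.9%. The remaining 9 Wnt genes were close to the detection limit, with at most 12 counts for Wnt2, 6 for Wnt6, 5 each for Wnt1 and Wnt8a, 3 for Wnt16, 2 each for Wnt3 and Wnt8b, and 1 each for Wnt3a and Wnt9b in any library. Of the R-spondins, Rspo3 was at 2.82 CPM per kb, Rspo2 was tested at 0.0795 CPM per kb, and Rspo1 and Rspo4 had at most 2 and 6 counts in any library.

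Of the 10 Frizzled genes, which were all tested, Fzd9, Fzd2 and Fzd7 were highest at 19.9, 16.2 and 11.2 CPM per kb, and Fzd3 and Fzd10 were lowest at 0.333 and 0.227. The co-receptors Lrp5 and Lrp6 were at 18.8 and 11.0 CPM per kb. Ror2, the receptor tyrosine kinase that takes up the WNT5 signal and is needed for cartilage growth, was at 11.2, well above its relative Ror1 at 1.62. Of the R-spondin receptors, Lgr6 and Lgr4 were tested, whereas Lgr5, a marker of stem cells in several tissues, was not tested, with at most 10 counts in a library. The ligases were far lower, Znrf3 at 2.21 and Rnf43 at 0.0478 CPM per kb.

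Frzb was the highest secreted antagonist at 9.46 CPM per kb, followed by Wif1, which binds WNT ligands directly, at 6.81, Sfrp1 at 3.91 and Notum, an enzyme that removes the lipid from WNT ligands, at 3.11. The Dickkopf genes were low. Dkk3, the divergent member of the family, was at 0.480, and of those whose products bind LRP5 and LRP6, Dkk2 was at 0.257, and Dkk1 and Dkk4 were not tested, with at most 2 counts each. Apcdd1, a membrane-bound antagonist, was at 0.895 CPM per kb. Inside the cell Axin1 was at 16.7, Nkd1 at 1.46, and Axin2, which is switched on by beta-catenin and serves as a readout of the pathway, at 0.446 CPM per kb. Tcf7l1, a factor that mainly represses targets, led the TCF/LEF factors at 7.36, ahead of Tcf7 at 2.90, Lef1 at 2.78 and Tcf7l2 at 2.202.

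**Figure D2:**
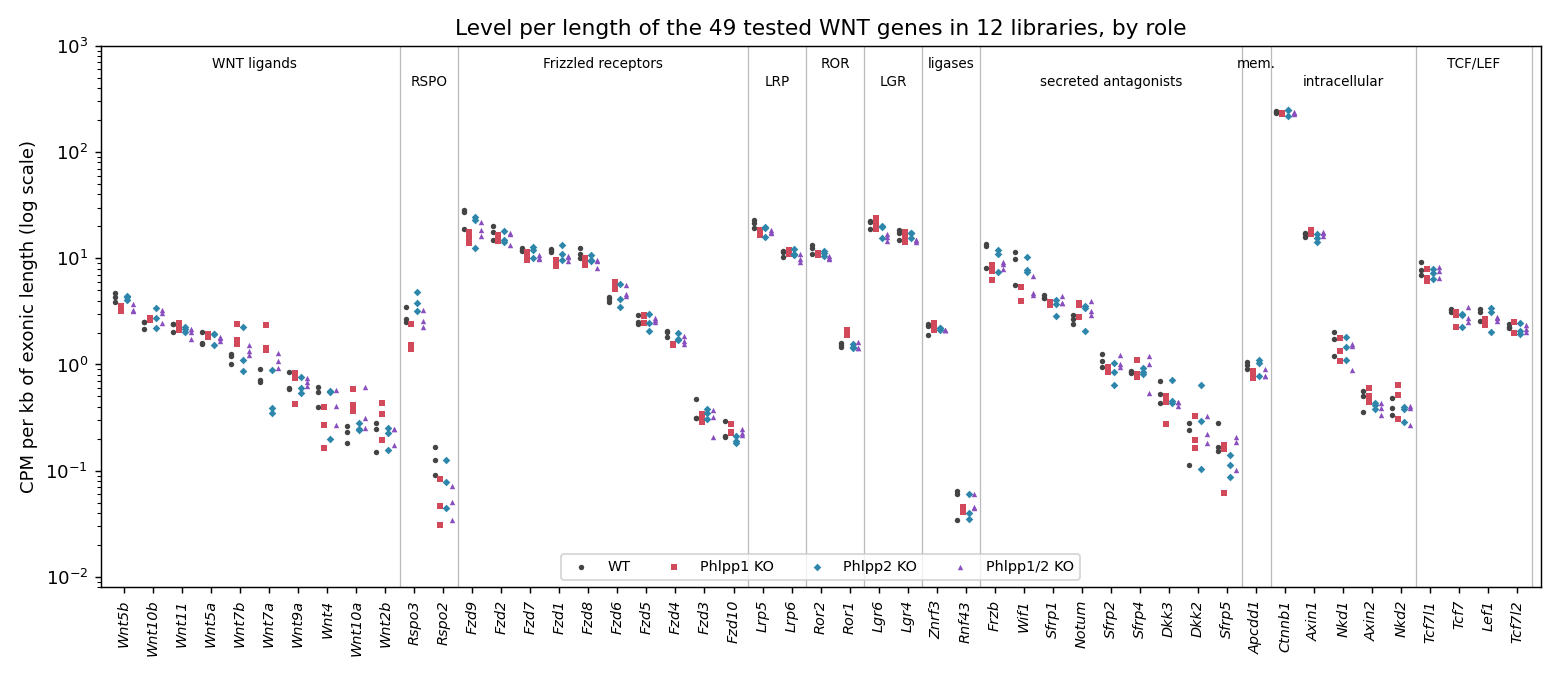
Level of each tested WNT gene per kilobase of exonic length (CPM per kb, log axis), grouped by role, with 1 point per library coloured by genotype. Ctnnb1 is the highest at 236 CPM per kb on average, the receptors Fzd9, Lgr6 and Lrp5 follow at 19.9, 19.1 and 18.8, and the highest ligand, Wnt5b, is at 3.84.

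Overlapping genes on the opposite strand may have added reads to the counts or taken reads from them. It is not known whether the counting used strand or how it treated reads in shared exons. Exons of the antisense gene Notumos covered 29.4% of the exonic length of Notum and those of Myadml2os 8.72%, and exons of an overlapping gene covered 17.8% of Fzd5, 16.1% of Sfrp2, 14.6% of Ctnnb1, 13.7% of Lef1 and 13.1% of Rspo3. What share of their reads was gained or lost through the overlaps is not known, and these levels are uncertain. In bulk RNA a lower level can come from fewer cells that express a gene or from less RNA per cell, which cannot be told apart here.

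For 42 of the 63 genes RefSeq promoters (build GRCm38.p6, 250 bases before to 50 bases after an annotated start) were at hand, 52 in all. A gene can have several such starts, and they need not match the gene bounds given here. The sequences below are those of genes named in the comparisons, 6 that hold a motif and 2 that hold none, with motif letters in capitals and all other letters in lower case, 5′ to 3′ on the strand of the gene. The motifs looked for on both strands were CTTTGAT or CTTTGTT for TCF/LEF factors, TGTTTAC for FOXO factors, TGANTCA for AP-1 and GCGNGGGCG for EGR1. FOXO factors are known targets of AKT, and EGR1 and AP-1 are known to respond to growth signals. A match describes letters only.
Wnt5b, downstream promoter (chr6:119449337-119449636, minus strand), with CTTTGAT beginning 71 bases before the start: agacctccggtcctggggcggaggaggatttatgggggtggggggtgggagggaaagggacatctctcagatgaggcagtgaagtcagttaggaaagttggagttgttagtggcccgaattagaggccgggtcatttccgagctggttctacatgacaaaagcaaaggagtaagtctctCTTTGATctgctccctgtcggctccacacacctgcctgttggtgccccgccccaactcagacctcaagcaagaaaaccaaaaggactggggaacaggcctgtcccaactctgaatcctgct
Wnt5b, upstream promoter (chr6:119544298-119544597, minus strand), with an AP-1 motif 191 bases before the start: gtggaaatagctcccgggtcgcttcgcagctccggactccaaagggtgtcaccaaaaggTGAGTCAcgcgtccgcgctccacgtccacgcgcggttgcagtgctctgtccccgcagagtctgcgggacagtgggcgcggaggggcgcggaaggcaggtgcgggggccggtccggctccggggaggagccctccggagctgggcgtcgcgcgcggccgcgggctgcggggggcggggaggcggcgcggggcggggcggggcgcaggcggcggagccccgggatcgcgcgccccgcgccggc
Wnt7a (chr6:91411304-91411603, minus strand), with EGR1 motifs 179 and 42 bases before the start: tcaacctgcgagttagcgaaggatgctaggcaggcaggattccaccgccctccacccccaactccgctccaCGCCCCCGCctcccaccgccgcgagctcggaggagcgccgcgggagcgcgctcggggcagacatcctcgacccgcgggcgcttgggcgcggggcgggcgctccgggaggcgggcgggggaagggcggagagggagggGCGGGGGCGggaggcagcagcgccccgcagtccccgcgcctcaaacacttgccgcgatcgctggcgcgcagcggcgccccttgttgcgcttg
Wif1 (chr10:121033754-121034053, plus strand), with an EGR1 motif 81 bases before the start: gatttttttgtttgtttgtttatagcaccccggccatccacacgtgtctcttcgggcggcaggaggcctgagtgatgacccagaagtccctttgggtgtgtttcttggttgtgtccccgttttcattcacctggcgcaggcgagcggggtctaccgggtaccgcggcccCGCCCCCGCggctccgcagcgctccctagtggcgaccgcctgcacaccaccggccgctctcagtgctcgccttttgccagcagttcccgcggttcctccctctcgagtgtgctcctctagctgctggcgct
Ror2 (chr13:53286075-53286374, minus strand), with an AP-1 motif 90 bases before the start: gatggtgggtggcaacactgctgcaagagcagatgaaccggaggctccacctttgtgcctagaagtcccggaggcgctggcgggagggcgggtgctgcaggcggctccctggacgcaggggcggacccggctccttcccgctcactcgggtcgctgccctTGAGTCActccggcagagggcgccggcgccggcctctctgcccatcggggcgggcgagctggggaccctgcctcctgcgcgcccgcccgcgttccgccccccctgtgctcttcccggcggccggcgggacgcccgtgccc
Lgr6 (chr1:135105227-135105526, minus strand), with an EGR1 motif 7 bases after the start: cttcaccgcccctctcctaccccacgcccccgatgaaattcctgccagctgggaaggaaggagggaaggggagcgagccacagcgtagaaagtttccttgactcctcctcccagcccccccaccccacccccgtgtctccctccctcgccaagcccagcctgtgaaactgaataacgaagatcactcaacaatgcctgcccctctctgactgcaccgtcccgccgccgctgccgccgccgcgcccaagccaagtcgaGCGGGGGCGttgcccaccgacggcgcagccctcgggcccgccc
Ror1 (chr4:100095541-100095840, plus strand), with none of the motifs: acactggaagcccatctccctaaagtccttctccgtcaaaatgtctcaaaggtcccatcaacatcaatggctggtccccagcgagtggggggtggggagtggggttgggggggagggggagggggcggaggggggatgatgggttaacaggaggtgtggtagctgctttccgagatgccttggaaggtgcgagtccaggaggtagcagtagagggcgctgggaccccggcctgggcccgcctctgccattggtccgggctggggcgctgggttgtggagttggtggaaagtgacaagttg
Fzd1 (chr5:4758167-4758466, minus strand), with none of the motifs: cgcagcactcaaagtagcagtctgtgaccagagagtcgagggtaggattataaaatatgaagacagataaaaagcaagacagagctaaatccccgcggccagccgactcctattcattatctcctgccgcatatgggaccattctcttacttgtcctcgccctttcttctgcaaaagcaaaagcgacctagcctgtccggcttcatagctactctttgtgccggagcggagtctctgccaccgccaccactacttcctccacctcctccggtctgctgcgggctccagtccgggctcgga

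Ror1 and Fzd1 are shown because they had the smallest p values in Phlpp1 KO against WT. The promoters of Frzb and Axin2 and the Wnt5b promoter between these, at chr6:119467162-119467461, likewise held none of the motifs, and that of Fzd4 held an EGR1 motif 32 bases before the start. Across the 52 promoters, 6 held a TCF/LEF motif, 1 a FOXO motif, 2 an AP-1 motif and 14 an EGR1 motif. Of all 32851 promoters of the same length, 9.33%, 3.65%, 7.81% and 5.55% held them, respectively. The EGR1 motif is made of G and C, and the promoters of the WNT genes had a median of 67% G and C against 52.7% of all promoters. Among promoters with at least 70% G and C, 11 of 22 promoters of the WNT genes held the EGR1 motif against 28.7% of all. Within this group the WNT promoters were still richer in G and C, with a median of 75.5% against 73.7%. The 11 include 2 overlapping promoters of Ctnnb1 that share the same site.

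In Phlpp1 KO libraries the antagonist Wif1, the receptors Fzd1 and Fzd4, the co-receptor Lrp5, the ligand Wnt5b and the R-spondin Rspo3 were at lower levels than in WT, and the ligand Wnt7a and the receptor Ror1 at higher levels, each without overlap between the genotypes. No WNT gene passed the test across all genes. Differences are given as log2 fold changes ± SE from edgeR, with p values adjusted over all 16565 tested genes. None of the 49 tested genes had an adjusted p under 0.05 in edgeR's quasi-likelihood test, where 0.537% of all tested genes did. At an unadjusted p under 0.05 stood 17 of the 49 genes, 34.7%, against 20.4% of all tested genes. Of these, 12 were lower (9.54% of all genes) and 5 were higher (10.8% of all genes). DESeq2 called 8 of the 42 genes with an adjusted p (Frzb, Fzd1, Fzd4, Fzd9, Ror1, Rspo3, Wif1 and Wnt7a), 19% against 7.59% of all genes it gave one, and limma-voom called 0. The median log2 fold change of the 49 genes was −0.16 and that of all tested genes −0.01, and 40 of the 49 differed by less than 1.5-fold. The differences ran from −1.21 for Rspo2 to 1.18 for Wnt7a.

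Among ligands, Wnt7a (chromosome 6, 91363981 to 91411363, minus strand) was at 2.85, 2.27 and 2.18 CPM in WT libraries 1 to 3 and at 4.54, 7.52 and 4.35 CPM in Phlpp1 KO libraries 1 to 3. Every Phlpp1 KO library was above every WT library. The difference was 1.18 ± 0.31 on the log2 scale with an adjusted p of 0.0952 in edgeR, a fold of 2.26. Wnt5b (chromosome 6, 119432531 to 119544347, minus strand) was at 12.4, 11.4 and 10.3 CPM in WT and at 8.48, 9.13 and 9.44 CPM in Phlpp1 KO, again without overlap but in the other direction. Its difference was −0.34 ± 0.10 on the log2 scale, adjusted p 0.114. The share of Wnt5b in the summed Wnt genes was 27.3% to 31.5% in WT and 20.1% to 23.8% in Phlpp1 KO, while that of Wnt7a was 4.85% to 6.04% and 9.17% to 13.9%. The ligand Wnt10a, at 0.560 ± 0.0997 and 1.12 ± 0.287 CPM (mean ± SD, n = 3), was also higher without overlap, with a log2 fold change of 0.99. Both tested R-spondins were lower: Rspo3 was at 8.33, 10.7 and 7.72 CPM in WT and 4.71, 4.37 and 7.40 CPM in Phlpp1 KO, a difference of −0.71 ± 0.23 on the log2 scale, adjusted p 0.125. Rspo2, at 0.659 ± 0.196 CPM in WT and 0.273 ± 0.139 CPM in Phlpp1 KO, rested on few counts.

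Among the receptors, Ror1 (chromosome 4, 100095791 to 100444765, plus strand) had the smallest adjusted p of all WNT genes in this comparison. It was at 9.23, 8.47 and 8.72 CPM in WT and 10.8, 12.1 and 11.4 CPM in Phlpp1 KO, all higher than in any WT library, a difference of 0.38 ± 0.09 on the log2 scale with adjusted p 0.0855. Its relative Ror2 was at 52.3 ± 5.57 and 46.8 ± 1.41 CPM and overlapped. Fzd1 (chromosome 5, 4753839 to 4758035, minus strand) was at 50.8, 48.0 and 51.7 CPM in WT and 39.3, 35.5 and 40.2 CPM in Phlpp1 KO, every one of them lower, with a difference of −0.39 ± 0.10 on the log2 scale, adjusted p 0.0865. Fzd4 (chromosome 7, 89404355 to 89413134, plus strand), which also binds norrin, was at 13.9, 12.3 and 13.5 CPM in WT and 10.4, 10.3 and 10.3 CPM in Phlpp1 KO, a difference of −0.35 ± 0.10 on the log2 scale, adjusted p 0.0966. Of the 10 Frizzled genes 7 were lower and 3 higher, with a median log2 fold change of −0.19, and 5 were at an unadjusted p under 0.05. Fzd9, the highest of them per length, was at 43.6, 62.8 and 65.9 CPM in WT and 40.4, 32.3 and 36.2 CPM in Phlpp1 KO, a difference of −0.66 ± 0.24 on the log2 scale with adjusted p 0.156, and every Phlpp1 KO library was lower. Fzd6, at 20.0, 18.8 and 20.6 CPM in WT and 29.0, 27.2 and 24.7 CPM in Phlpp1 KO, was higher in every Phlpp1 KO library, by 0.44 ± 0.15 on the log2 scale, adjusted p 0.141. The summed level of the Frizzled genes was 78.2 to 95.6 CPM per kb in WT and 65.8 to 75.3 in Phlpp1 KO. The co-receptor Lrp5 was at 207 ± 16.7 CPM in WT and 173 ± 9.64 CPM in Phlpp1 KO, −0.26 ± 0.08 on the log2 scale, adjusted p 0.122. The R-spondin receptor Lgr6 (chromosome 1, 134983301 to 135105276, minus strand) was at 144 ± 13.0 CPM in WT and 145 ± 17.4 CPM in Phlpp1 KO, and the 95% interval of its log2 difference ran from −0.22 to 0.26.

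Of the secreted antagonists, Wif1 had the smallest p. Wif1 (chromosome 10, 121033960 to 121100650, plus strand) was at 13.7, 23.9 and 27.6 CPM in WT and at 9.62, 9.56 and 13.2 CPM in Phlpp1 KO, so that WT 1 was the nearest to the Phlpp1 KO libraries. Its difference was −1.02 ± 0.26 on the log2 scale with adjusted p 0.0945, and without WT 1 the log2 fold change was −1.24 with adjusted p 0.0451, the only WNT gene called (0.223% of all genes were). Frzb (chromosome 2, 80411970 to 80447625, minus strand) was at 26.4, 43.7 and 41.9 CPM in WT and 28.2, 20.1 and 24.8 CPM in Phlpp1 KO, which overlapped, −0.62 ± 0.21 on the log2 scale, adjusted p 0.142. Of the 9 tested antagonists 6 were lower (52.3% of all tested genes were) and 3 higher, with 2 at an unadjusted p under 0.05. The summed level of the secreted antagonists was 23.7 to 34.1 CPM per kb in WT and 20.3 to 22.9 in Phlpp1 KO. Markers of the superficial zone and joint (Prg4, Gdf5 and Thbs4) summed to 149.7 to 209 CPM in WT and 116 to 156 CPM in Phlpp1 KO. Prg4 and Thbs4 averaged 148 and 9.62 CPM in WT and 96.3 and 6.05 CPM in Phlpp1 KO. Gdf5 averaged 31.0 CPM in WT and 30.5 CPM in Phlpp1 KO. The part of the joint markers in the differences of the WNT genes was not tested. The osteoblast markers Bglap, Sp7, Ibsp, Alpl and Dmp1 summed to 35.5 to 48.6 CPM in WT and 29.8 to 31.1 CPM in Phlpp1 KO, without overlap, and to 40.1 to 56.7 CPM in Phlpp2 KO and 17.1 to 44.8 CPM in Phlpp1/2 KO. Sp7 and Alpl made up most of these sums and were each lower in Phlpp1 KO without overlap, and Bglap and Dmp1 stayed under 0.3 CPM in every library. Ibsp was at 5.77 ± 2.44 CPM in WT and 6.18 ± 0.606 CPM in Phlpp1 KO (mean ± SD), which overlapped, and at 11.4 ± 5.40 CPM in Phlpp2 KO. The part of the osteoblast markers in the differences of the WNT genes was not tested.

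Among the intracellular genes none was at an unadjusted p under 0.05. Axin2 (chromosome 11, 108920349 to 108950783, plus strand) was at 3.08, 1.95 and 2.79 CPM in WT and 2.46, 3.32 and 2.78 CPM in Phlpp1 KO, 0.14 ± 0.19 on the log2 scale, adjusted p 0.722, and the groups overlapped. Ctnnb1 was at 1244 ± 21.5 and 1212 ± 13.5 CPM. All 4 TCF/LEF factors were lower in Phlpp1 KO, with a median log2 fold change of −0.24 and none at an unadjusted p under 0.05. Over all 49 genes, the 3 libraries of each genotype did not overlap in 18 (36.7%, against 28.2% of all tested genes). Of these, 12 were lower (13.3% of all genes): Wnt5b, Rspo2, Rspo3, Fzd1, Fzd4, Fzd7, Fzd9, Lrp5, Sfrp1, Wif1, Apcdd1 and Tcf7. The 6 that were higher (14.9% of all genes) were Wnt7a, Wnt7b, Wnt10a, Wnt10b, Fzd6 and Ror1. Without the low-Xist libraries the count at an unadjusted p under 0.05 was 14 (28.6%, against 16.4% of all), of which 9 were lower and 5 higher, and without Phlpp1 KO 2 it was 10 (20.4%, against 16.4% of all).

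**Figure D3:**
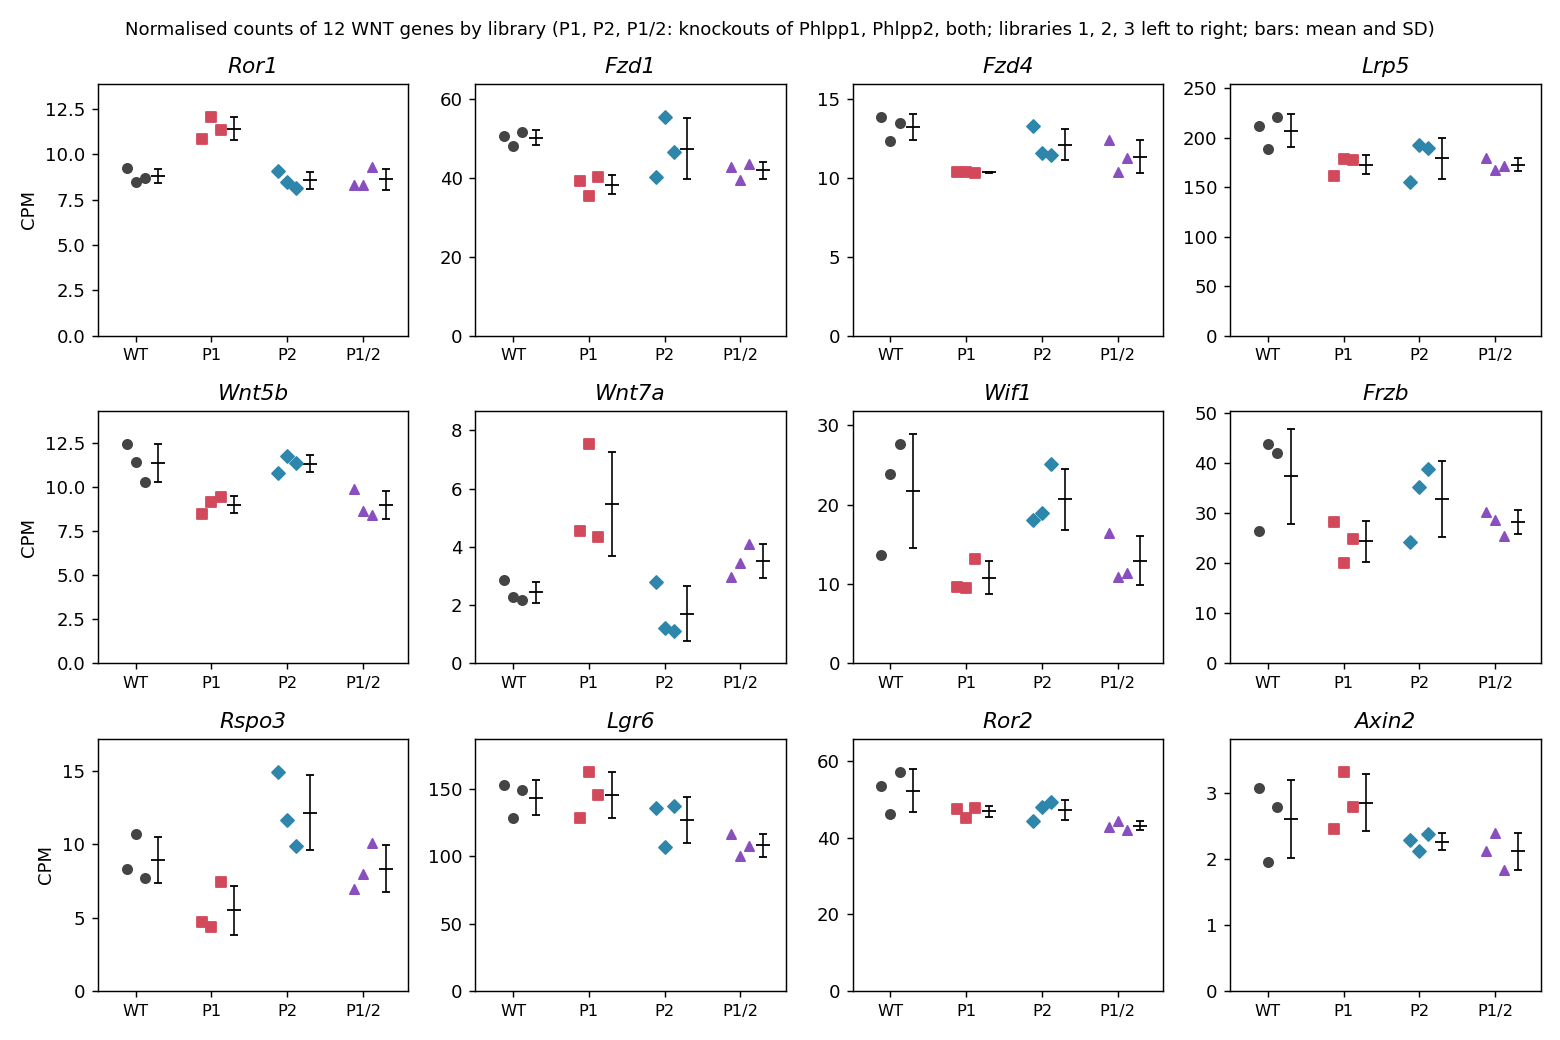
CPM of WNT genes named in the comparisons in each of the 12 libraries, by genotype (P1, P2 and P1/2 for the knockouts), with 1 point per library and the mean with SD beside each group. In Phlpp1 KO the 3 values of Wnt7a and Ror1 lie above all WT values and those of Fzd1, Wnt5b and Wif1 below them.

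Few WNT genes had a small p in Phlpp2 KO libraries against WT, and the distance from WT differed between libraries. Over the 49 genes, Phlpp2 KO 1 had median absolute differences (log2) of 0.254, 0.234 and 0.294 from WT 1, WT 2 and WT 3. Those of Phlpp2 KO 2 and Phlpp2 KO 3 from WT were 0.109 to 0.249. The WT libraries differed from each other by 0.126 to 0.191. With this spread within Phlpp2 KO, few small p values do not show that levels were close to WT. None of the 49 genes had an adjusted p under 0.05 (0.121% of all tested genes did), and 2 were at an unadjusted p under 0.05, 4.08% against 13.8% of all. DESeq2 and limma-voom called 0. The median log2 fold change was −0.09 against −0.02 for all genes. Of the 49 genes 39 were lower (53.9% of all tested genes were) and 10 higher, and 46 differed by less than 1.5-fold. The differences ran from −0.81 for Sfrp5 to 0.71 for Dkk2, both at low counts. The 2 genes were Lrp5, at 212, 189 and 222 CPM in WT and 155, 193 and 189.5 CPM in Phlpp2 KO, and Sfrp1, an antagonist that binds WNT ligands, at 19.7, 18.3 and 18.4 CPM in WT and 12.4, 17.8 and 16.2 CPM in Phlpp2 KO. The Lrp5 groups overlapped, with a difference of −0.21 ± 0.08 on the log2 scale and adjusted p 0.307. Those of Sfrp1 did not, with −0.28 ± 0.12 on the log2 scale and adjusted p 0.318. Without Phlpp2 KO 1 the log2 fold changes were −0.12 for Lrp5 (adjusted p 0.563) and −0.14 for Sfrp1 (adjusted p 0.582). The count at an unadjusted p under 0.05 was then 5 (10.2%, against 11.5% of all), and without WT 1 it was 0 against 11.5% of all. Groups did not overlap for 3 genes (6.12%, against 19.1% of all), namely Sfrp1, Sfrp5 and Tcf7, all lower in Phlpp2 KO.

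Wnt5b, Lgr6, Frzb and Axin2 overlapped WT. Wnt5b was at 10.8, 11.8 and 11.4 CPM in Phlpp2 KO, −0.01 ± 0.10 on the log2 scale, adjusted p 0.987, and the sign of so small a difference turned with the settings. Lgr6 was at 136, 107 and 137 CPM against 153, 129 and 149 CPM in WT, −0.18 ± 0.11 on the log2 scale, adjusted p 0.517. Frzb was at 24.3, 35.2 and 38.7 CPM, a difference of −0.19 ± 0.21 on the log2 scale, adjusted p 0.734 (−0.02 without Phlpp2 KO 1), and Axin2 at 2.28, 2.12 and 2.38 CPM, a difference of −0.20 ± 0.19 on the log2 scale, adjusted p 0.694. Phlpp2 KO 1 had the highest value of its genotype in 23 of the 49 genes and the lowest in 22.

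In Phlpp1/2 KO the WNT genes with the smallest p against WT were the receptors Ror2 and Lgr6, both at lower levels. None of the 49 passed the adjusted threshold in edgeR, limma-voom or DESeq2 (0.235% of all tested genes did in edgeR and 1.08% in DESeq2), and 12 were at an unadjusted p under 0.05, 24.5% against 11.1% of all. Of these, 11 were lower (6.09% of all genes) and 1, Wnt10a, was higher (4.99% of all genes). Wnt10a was at 0.453, 0.577 and 0.650 CPM in WT and 0.773, 1.53 and 0.620 CPM in Phlpp1/2 KO. These groups overlapped, and the gene had at most 50 counts in any library. The median log2 fold change was −0.16 against −0.00 for all tested genes. Of the 49 genes 38 were lower (50.4% of all tested genes were) and 11 higher, and 46 differed by less than 1.5-fold. The differences ran from −1.27 for Rspo2 to 0.78 for Wnt10a.

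Ror2 (chromosome 13, 53109312 to 53286124, minus strand) was at 53.5, 46.2 and 57.2 CPM in WT and 42.8, 44.4 and 42.1 CPM in Phlpp1/2 KO, below every WT library, with −0.28 ± 0.07 on the log2 scale and adjusted p 0.219. Lgr6 was at 153, 129 and 149 CPM in WT and 117, 99.9 and 108 CPM in Phlpp1/2 KO, −0.41 ± 0.11 on the log2 scale, adjusted p 0.225, again with every library lower. Both tested R-spondin receptors were at an unadjusted p under 0.05. Lgr4 was at 86.8, 101 and 110 CPM in WT and 87.1, 87.6 and 83.1 CPM in Phlpp1/2 KO, which overlapped. The summed level of the R-spondin receptors was 36.0 to 40.5 CPM per kb in WT and 29.5 to 31.9 in Phlpp1/2 KO. The Frizzled genes were lower for 9 of 10, among them Fzd8 at 66.6 ± 7.42 and 54.0 ± 4.83 CPM (−0.30 ± 0.09 on the log2 scale, adjusted p 0.281). Lrp5 was at 173 ± 6.35 CPM, a difference of −0.26 ± 0.08 on the log2 scale, adjusted p 0.301. The ROR co-receptors summed to 12.4 to 15.0 CPM per kb in WT and 11.5 to 11.9 in Phlpp1/2 KO, with most of the sum from Ror2. Ror1 overlapped, at 8.47 to 9.23 CPM in WT and 8.29 to 9.30 CPM in Phlpp1/2 KO.

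Wnt5b was at 9.92, 8.66 and 8.42 CPM in Phlpp1/2 KO, below every WT library, a difference of −0.34 ± 0.10 on the log2 scale, adjusted p 0.266. Wif1 was at 16.5, 10.9 and 11.4 CPM, which overlapped WT 1, a difference of −0.76 ± 0.25 on the log2 scale, adjusted p 0.322. Frzb was at 30.1, 28.7 and 25.5 CPM (−0.41 ± 0.21 on the log2 scale, adjusted p 0.501) and Axin2 at 2.13, 2.39 and 1.83 CPM (−0.29 ± 0.19 on the log2 scale, adjusted p 0.606), both overlapping WT. Groups did not overlap in 11 of the 49 genes (22.4%, against 18.9% of all), of which 2 were higher (8.57% of all genes), Wnt7a and Fzd6. The 9 that were lower (10.3% of all genes) were Wnt5b, Rspo2, Fzd1, Fzd7, Fzd8, Lrp5, Ror2, Lgr6 and Apcdd1. Without the low-Xist libraries 10 genes were at an unadjusted p under 0.05 (20.4%, against 9.31% of all), of which 9 were lower, and without WT 3 it was 7 (14.3%, against 7.42% of all).

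**Figure D4:**
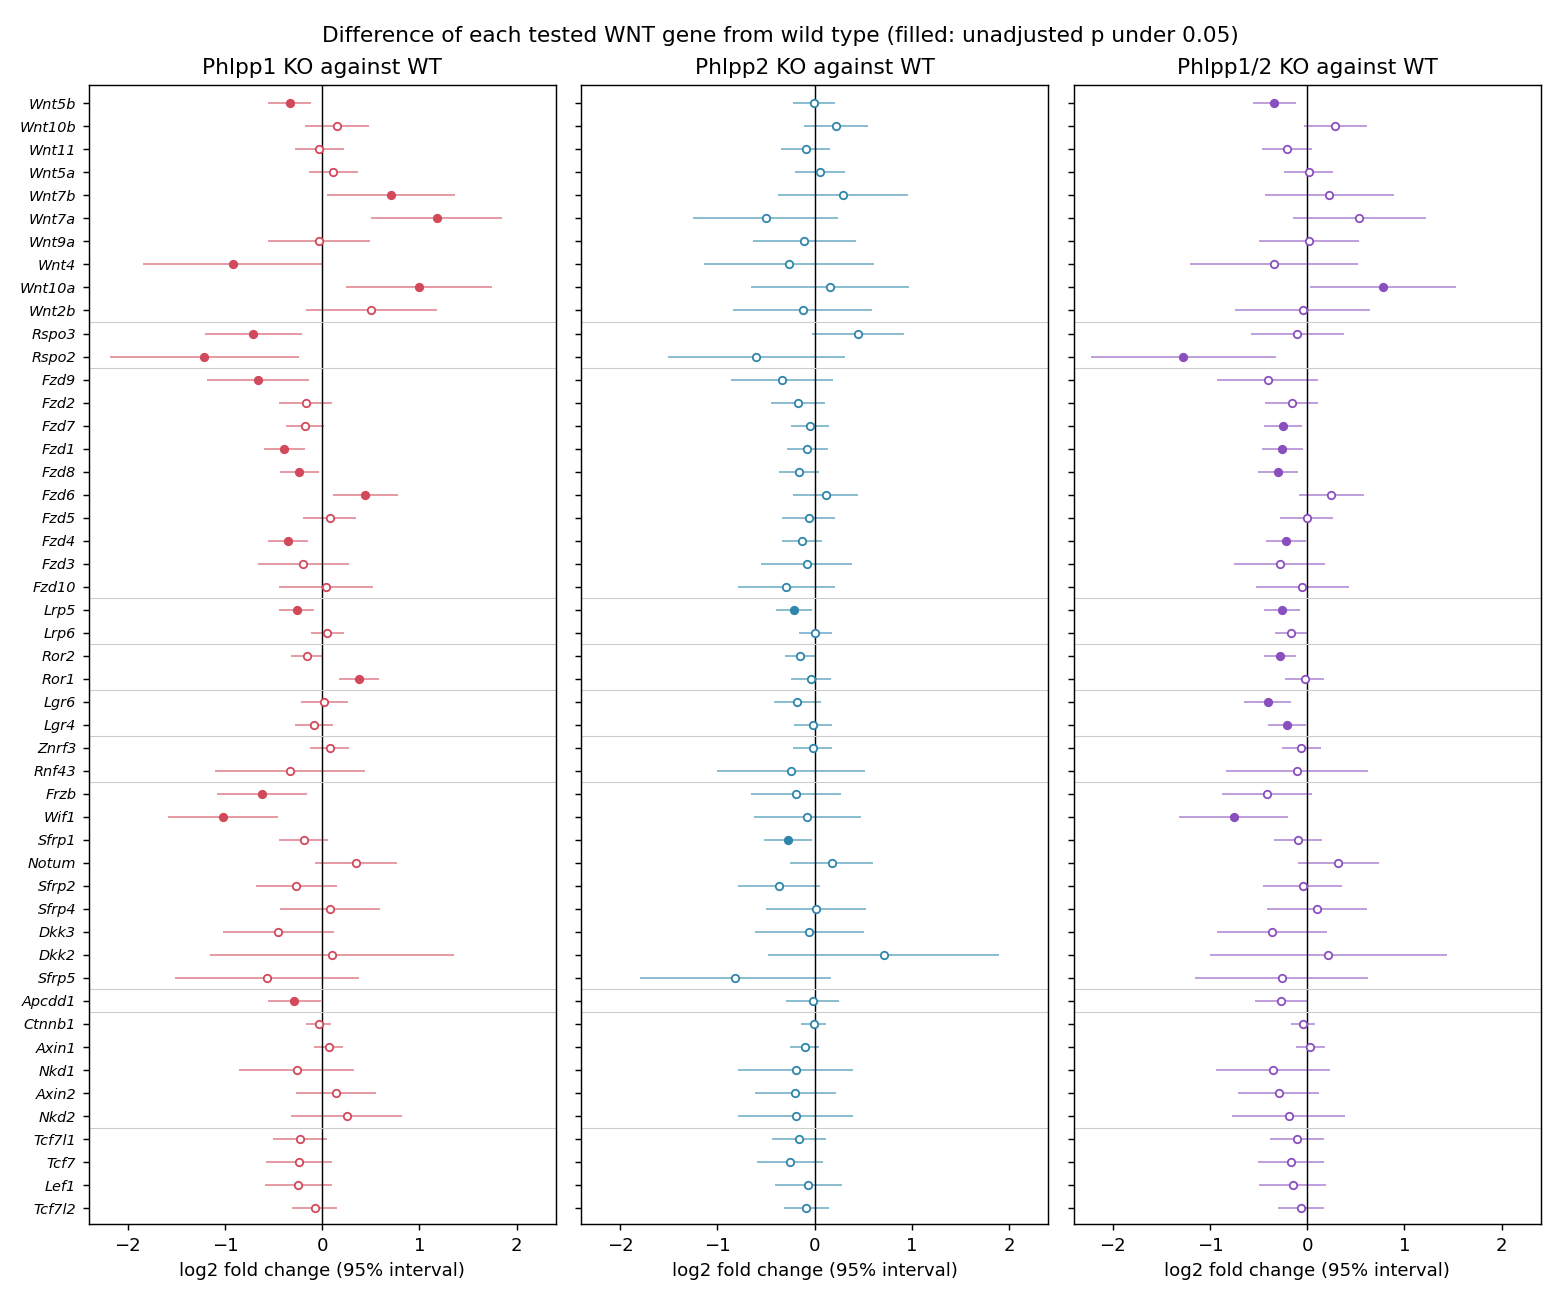
Log2 fold change of each tested WNT gene against WT for Phlpp1 KO, Phlpp2 KO and Phlpp1/2 KO, by role, with lines for the 95% interval and filled points for an unadjusted p under 0.05. The Frizzled genes lie mostly below 0 in all 3 comparisons, and Wnt7a and Ror1 lie above 0 in Phlpp1 KO.

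The knockouts were next compared with each other, with the 3 comparisons sharing libraries. Between Phlpp1 KO and Phlpp2 KO no WNT gene passed the threshold (0.151% of all tested genes did), DESeq2 called 4 of the 48 with an adjusted p (Ror1, Rspo3, Wif1 and Wnt7a), 8.33% against 1.07% of all, and limma-voom 0. At an unadjusted p under 0.05 stood 9 genes, 18.4% against 10.4% of all, and the groups did not overlap in 11 (22.4%, against 14.1% of all). Wnt7a was at 2.79, 1.22 and 1.11 CPM in Phlpp2 KO, below all Phlpp1 KO libraries, a difference of 1.68 ± 0.32 on the log2 scale, adjusted p 0.0729. Rspo3 was at 14.9, 11.6 and 9.89 CPM in Phlpp2 KO, above all Phlpp1 KO libraries, a difference of −1.15 ± 0.22 on the log2 scale, adjusted p 0.0729. Ror1 was at 9.08, 8.50 and 8.17 CPM in Phlpp2 KO, a difference of 0.41 ± 0.09 on the log2 scale, adjusted p 0.119. Wif1 was at 18.0, 19.0 and 25.1 CPM in Phlpp2 KO, −0.94 ± 0.26 on the log2 scale, adjusted p 0.245. Wnt5b and Fzd1 were lower in Phlpp1 KO, with −0.33 and −0.31 and adjusted p of 0.273 and 0.289. Without Phlpp2 KO 1, 17 were at an unadjusted p under 0.05 (34.7%, against 16.4% of all) and 4 passed (8.16%, against 1.22% of all): Wnt7a with a log2 fold change of 2.22 and adjusted p 0.00658, Fzd1 with −0.41 and 0.0392, and Fzd6 and Wnt7b. Without Phlpp1 KO 3, Rspo3 alone passed, at −1.43 and adjusted p 0.0226, when 0.223% of all genes did.

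Between Phlpp1/2 KO and Phlpp1 KO no WNT gene passed in edgeR, DESeq2 or limma-voom (0.0121% of all tested genes did in edgeR). At an unadjusted p under 0.05 were 6, 12.2% against 7.9% of all (3 without Phlpp1 KO 2, 6.12% against 6.97%), and groups did not overlap in 8 (16.3%, against 13.2% of all). Ror1 was at 8.31, 8.29 and 9.30 CPM in Phlpp1/2 KO, lower than in every Phlpp1 KO library, a difference of −0.40 ± 0.09 on the log2 scale, adjusted p 0.524. Lgr6 was lower (−0.43 ± 0.11 on the log2 scale, adjusted p 0.626), and so was Axin2 (−0.43 ± 0.19 on the log2 scale, adjusted p 0.626), both without overlap. Lrp6 (−0.22) and Wnt7a (−0.64) were also lower and Rspo3 (0.61) higher, all with an adjusted p of 0.626.

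Between Phlpp1/2 KO and Phlpp2 KO no WNT gene passed in any of these tools (0.0724% of all tested genes did in edgeR). At an unadjusted p under 0.05 were 6, 12.2% against 8.84% of all. The count was 14 without Phlpp2 KO 1 (28.6%, against 11.1% of all) and 2 without Phlpp1/2 KO 2 (4.08%, against 4.82% of all). Groups did not overlap in 5 (10.2%, against 12.4% of all). Wnt5b was lower (−0.33 ± 0.10 on the log2 scale, adjusted p 0.514) and Wnt7a higher (1.04 ± 0.32 on the log2 scale, adjusted p 0.516), at 1.58 and adjusted p 0.0687 without Phlpp2 KO 1. Wif1 was lower (−0.68 ± 0.25 on the log2 scale, adjusted p 0.516), followed by Rspo3 (−0.55, adjusted p 0.533), Lrp6 (−0.17, adjusted p 0.564) and Fzd7 (−0.20, adjusted p 0.565).

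The interaction term measures how far Phlpp1/2 KO lies from the sum of the differences (log2) seen in Phlpp1 KO and in Phlpp2 KO. For no WNT gene did it pass in edgeR, DESeq2 or limma-voom (0.0483% of all tested genes did in edgeR), and 2 were at an unadjusted p under 0.05, 4.08% against 14.5% of all. These were Ror1, at −0.37 ± 0.13 on the log2 scale with adjusted p 0.209, and Sfrp1, at 0.37 ± 0.16 on the log2 scale with adjusted p 0.304, and at 0.24 with adjusted p 0.461 without Phlpp2 KO 1. The count was 4 without Phlpp2 KO 1 (8.16%, against 12.5% of all), 7 without Phlpp2 KO 2 (14.3%, against 17.3% of all) and 1 without Phlpp1 KO 3 (2.04%, against 11.7% of all). Ror1 was at 11.4 ± 0.630 CPM (mean ± SD, n = 3) in Phlpp1 KO and at 8.81 ± 0.391, 8.58 ± 0.462 and 8.63 ± 0.579 CPM in WT, Phlpp2 KO and Phlpp1/2 KO. The interaction coefficient was above 0 in 29 genes and below 0 in 20, and it was below 0 in 43.9% of all tested genes.

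A further 67 genes of the pathway were looked at, of which 63 were tested and none passed in edgeR in any of the 7 comparisons. They cover WNT secretion, the destruction complex with the Dishevelled genes, cofactors of beta-catenin, other extracellular regulators, the planar polarity and calcium branch, and other target genes. Against WT, 16 were at an unadjusted p under 0.05 in Phlpp1 KO (25.4%, against 20.4% of all tested genes), 7 in Phlpp2 KO (11.1%, against 13.8%) and 10 in Phlpp1/2 KO (15.9%, against 11.1%). Limma-voom called 0 in every comparison, and DESeq2 called 5 in Phlpp1 KO against WT (Camk2d, Ctnnbip1, Fosl1, Vangl2 and Wisp2, 8.62% against 7.59% of all), 1 in Phlpp1/2 KO against WT (Celsr2, 1.67% against 1.08%), 1 in Phlpp1 KO against Phlpp2 KO (Wisp2, 1.59% against 1.07%) and 0 in the other comparisons. In Phlpp1 KO 40 of the 63 were lower and 23 higher, where 52.3% of all tested genes were lower. In Phlpp1 KO the smallest p was that of Vangl2, a planar polarity gene, at 8.46, 8.22 and 7.19 CPM in WT and 4.75, 5.16 and 5.76 CPM in Phlpp1 KO, all lower, a difference of −0.61 ± 0.16 on the log2 scale, adjusted p 0.09. It was followed by Camk2d, a calcium-dependent kinase, at 0.28 with adjusted p 0.108, and Ctnnbip1, which keeps beta-catenin from TCF factors, at −0.30 with adjusted p 0.108. In Phlpp2 KO they were Dvl3 (−0.25, adjusted p 0.23), Celsr2 (−0.48, adjusted p 0.29) and Tle3 (−0.18, adjusted p 0.317). In Phlpp1/2 KO the planar polarity gene Celsr2 was at 3.80, 3.82 and 3.94 CPM in WT and 2.67, 2.203 and 1.77 CPM in Phlpp1/2 KO, all lower, a difference of −0.80 ± 0.19 on the log2 scale, adjusted p 0.15, followed by Apc2 (−0.71, adjusted p 0.266) and Gpc3 (0.42, adjusted p 0.283).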

How the data were processed

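RNA sequencing libraries of cultured mouse chondrocytes, 3 for each of 4 genotypes, were analysed from raw gene counts, deposited without any scaling by the authors. The submitters' processing notes list bcl2fastq 2.17, STAR 2.5.2b, featureCounts and Subread 1.5.2, and the build mm10. Strand setting and annotation release: not given in the sources used here.

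Counts were tested by the quasi-likelihood test of edgeR 4.0.16 (R 4.3.3), with robust estimation. Its low-count filter (minimum count 10) kept 16565 of 49315 genes, TMM set the scale, and the 12 libraries shared 1 fit with 8 residual degrees of freedom. Benjamini-Hochberg adjustment ran over all genes tested, and a gene was called at an adjusted p under 0.05. DESeq2 1.42.0, limma-voom (limma 3.58.1), other scaling, no filter, the compared libraries alone, a replicate block, and leaving out each replicate or the low-Xist libraries were alternatives. CPM uses TMM-scaled totals. Levels per length use exonic lengths of GENCODE vM21 (mm10), which also gave the positions. Genes without a symbol (174) carried 0.00419% of counts.

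The members, roles and lists were chosen with earlier results of these data known. Named in each comparison were Lgr6, Wnt5b, Axin2 and Frzb, called genes, and up to 6 genes with the smallest unadjusted p under 0.05. Named by level were the 3 highest per role, and all untested members were named with their highest count. From other pathway genes, up to 3 with the smallest p were named. Further genes were named after their values were seen, as examples of a count.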

Additional observations from a re-analysis of the deposited data

How the results depend on the processing

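No WNT gene was called in any of the 7 comparisons by limma-voom, by edgeR with the scaling of DESeq2, with the replicate block or without the low-Xist libraries. In Phlpp1 KO against WT 1 gene (Fzd1) was called with no filter on low counts (1.59%, against 1.4% of all genes), 6 (Fzd1, Fzd4, Fzd6, Ror1, Wnt7a and Wnt7b) when the 6 compared libraries alone were fitted (12.8%, against 7.38% of all), and 8 by DESeq2. Leaving out 1 replicate at a time gave 0 to 1 (Wif1 without WT 1). In Phlpp1 KO against Phlpp2 KO DESeq2 called 4, and leaving out 1 replicate at a time gave 0 to 4. The cause of these differences was not tested. Of 569 alternative values for the 43 named differences, 539 kept their direction and their side of the threshold, 19 came to pass it, and 11 changed sign, all of them near 0. The difference of Wnt5b in Phlpp2 KO was −0.01 on the log2 scale, and was 0.0069 with no filter, 0.0087 without the low-Xist libraries, 0.0046 with the compared libraries alone, 0.0020 by limma-voom, 0.00063 by DESeq2, and 0.079, 0.0076 and 0.026 without WT 1, WT 2 and Phlpp2 KO 1 (range −0.076 to 0.079 over all single replicates left out). That of Lgr6 in Phlpp1 KO was −0.045 without WT 2 and −0.050 without Phlpp1 KO 2 (range −0.05 to 0.10), and that of Axin2 −0.030 without WT 2 (range −0.03 to 0.29). Whether the replicate numbers pair the libraries could not be settled. Deviations from the group means of 3 in same-numbered libraries correlated at −0.16 to 0.30 (median −0.05, 18 pairs). Of 12 libraries 5 correlated best with their own number. With the replicate block 0 WNT genes were called in each comparison. Over all genes, calls rose from 89 to 245 in Phlpp1 KO against WT and from 20 to 84 in Phlpp2 KO against WT. For the interaction they rose from 8 to 308. They fell from 39 to 29 in Phlpp1/2 KO against WT and from 12 to 10 in Phlpp1/2 KO against Phlpp2 KO. They fell from 25 to 15 in Phlpp1 KO against Phlpp2 KO and stayed at 2 in Phlpp1/2 KO against Phlpp1 KO. Genes with few counts, such as Rspo2, Rnf43 and Dkk2, have wide intervals, and depth limits what can be said of the 14 untested genes.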
